A study of Mus musculus with 126 samples.

Results

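The Myc and Max network is a set of 10 genes of basic helix-loop-helix leucine zipper factors: Max itself, its 3 activating partners Myc, Mycn and Mycl, and its 6 repressing partners Mxd1, Mxd3, Mxd4, Mxi1, Mnt and Mga. The genes were chosen by symbol in a count table of 23420 genes, and all 10 were found. Mycl is listed there under its older symbol Mycl1, which was matched through the RefSeq synonyms. All 10 were among the 15822 genes that passed the filter on low counts. The series examined how DNA methylation and histone acetylation shape where transcription factors bind in mouse embryonic stem cells, and MAX was one of the factors assayed by ChIP-seq. Of its 126 samples, the 8 RNA-seq libraries were analysed here and the other 118 were not. The strain of all cells was J1. Some were wild type, and those called TKO carried the genotype Dnmt1-/-, Dnmt3a-/-, Dnmt3b-/-. Each genotype received Trichostatin A (TSA, a histone deacetylase inhibitor) at a labelled 5 ng/µl or the solvent control of 0.0033% DMSO for 36 h. This gives 4 groups of 2 libraries, named by genotype and treatment. All cells were grown on gelatin in serum with leukaemia inhibitory factor. All TKO libraries carry the same genotype label, and no clone is named.

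MAX binds DNA only as a pair, with itself or with another member of the network, and the pairs recognise the E-box CACGTG. Pairs of MAX with a MYC protein recruit acetyltransferases and raise transcription of genes for ribosome production, nucleotide synthesis and cell growth. MXD, MXI1 and MNT proteins compete for MAX and recruit the SIN3 corepressor, whose histone deacetylases are enzymes that TSA inhibits. MGA takes MAX into a polycomb complex that is known in embryonic stem cells for keeping germ cell genes silent. All values here are RNA levels, and protein was not measured.

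The E-box that these factors recognise lies in the promoters of some of the network's own genes, so those windows are shown. RefSeq promoters of build GRCm38.p6, each running from 250 bases before the start site to 50 after it, were available for 9 of the 10 genes. Mxi1 has 3 such promoters, which makes 11 in all. The table has none for Myc. The RefSeq start used for Mycl lies upstream of the gene start in the count table. CACGTG, which reads the same on both strands, was found in the promoters of Max, Mnt and Mxd4. The related CACGCG, searched on both strands as CACGCG or CGCGTG, was found in those of Mycl and Mga. Among 32851 promoters of the same 300 bases, 7.15% hold CACGTG and 9.27% hold CACGCG on either strand. The capitals mark the motif, and each sequence runs 5′ to 3′ along the gene's own strand.
Max, chr12:76962234-76962278, minus strand, motif from 3 bases before the start site: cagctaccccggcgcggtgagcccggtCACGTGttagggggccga
Mnt, chr11:74830774-74830833, plus strand, motif from 123 bases before the start site: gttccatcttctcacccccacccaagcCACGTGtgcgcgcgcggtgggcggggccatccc
Mxd4, chr5:34187897-34187956, minus strand, motif from 219 bases before the start site: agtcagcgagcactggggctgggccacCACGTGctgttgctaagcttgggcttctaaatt
Mycl, chr4:122995884-122995943, plus strand, motif from 20 bases before the start site: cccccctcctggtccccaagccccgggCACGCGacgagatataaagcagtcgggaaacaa
Mga, chr2:119897180-119897239, plus strand, motif from 21 bases before the start site: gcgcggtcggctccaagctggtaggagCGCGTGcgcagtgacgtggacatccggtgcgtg
A match describes the letters only, and no binding was examined. The 3 genes with CACGTG did 3 different things with TSA, as the values further on show: Mnt RNA fell, Mxd4 RNA rose and Max RNA was not called. CpG dinucleotides, the sites that DNA methyltransferases modify, numbered 14 in the Mycn promoter, 18 in Mxd4, 22 in Mycl, 24 in Mga, 25 in Mxd3, 30 in Max, 32 in Mnt and 39 in Mxd1. The 3 Mxi1 promoters held 17, 21 and 49. All 11 were above the median of 7 over all promoters, whose quartiles were 3 and 20. Methylation of these promoters was not examined here.

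The libraries held 13280631 to 15542527 counts, so 3 counts correspond to 0.183 to 0.243 normalised CPM, the library-size-scaled level that results from dividing each count by its library total and TMM factor. This floor covers counting error only. The lowest count of a member in any library was 55, for Mxd4 in wild type DMSO replicate 2. As a check of the labels, Dnmt1, Dnmt3a and Dnmt3b were lower in TKO than in wild type under DMSO, at log2 changes of -1.78, -3.00 and -3.72 (edgeR adjusted p = 1.47e-06, 1.47e-06 and 5.36e-08). Markers of embryonic stem cells were present in every library. Their summed level over 8 genes was 2548 to 2791 CPM in wild type and 3315 to 3650 in TKO under DMSO, and 1383 to 1569 and 1590 to 1879 under TSA. With TSA, 6 of the 8 were called lower in wild type and 7 of the 8 in TKO. Of all tested genes, 25.9% and 27.9% were called lower there. The uncalled ones of the 8 also had negative log2 changes. The other marker lists moved as well. A sum follows the most abundant genes of its list, and single genes could go the other way. With TSA, 1 neural marker was called higher and 3 lower in wild type, and 2 and 3 in TKO. In TKO against wild type under TSA, 2 neural markers were higher and 0 lower (median log2 change 1.26). There 1 trophoblast marker was higher and 2 lower (median 0.56). In these comparisons 27.0%, 30.8% and 10.0% of all genes were higher and 25.9%, 27.9% and 8.38% lower. The 5 trophoblast markers summed to 224 to 379.9 CPM in wild type and 28.0 to 41.7 in TKO under DMSO, and to 482 to 546 and 73.9 to 99.7 under TSA. Listed the same way, the 5 fibroblast markers summed to 37.0 to 44.0, 9.64 to 10.3, 76.2 to 91.0 and 30.4 to 46.8 CPM, and the 5 neural markers to 179 to 185, 223 to 239, 68.8 to 86.3 and 65.3 to 72.5 CPM. The 5 endoderm markers summed to 5.35 to 6.48, 16.0 to 18.3, 8.06 to 11.2 and 27.4 to 31.3 CPM, and the 4 mesoderm markers to 8.59 to 15.0, 1.85 to 2.11, 4.01 to 6.78 and 2.03 to 2.82 CPM. At most 3 counts in both libraries of a group were seen for Afp, Mesp1 and Neurog2 in wild type DMSO and for Elf5, Col3a1 and Neurog2 in TKO DMSO. The part of these shifts in the results that follow was not tested, and in such bulk samples fewer cells of a type and less RNA per cell cannot be told apart. TMM scaling put the median log2 change of all genes at 0.01 for TSA in wild type and 0.04 for TSA in TKO. Scaling by total counts put it at 0.22 and 0.19, and upper quartile scaling at 0.16 and 0.11. The share of called genes that were higher with TSA was 51.0% in wild type, against 65.8% with upper quartile and 70.4% with total count scaling. In TKO it was 52.5%, against 58.5% and 64.4%.

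Mycn had the highest mean level per kilobase of exon among the partners of Max in all 4 groups. Without scaling by exon length, Mga was above Mycn in each of the 8 libraries. In wild type DMSO, Mga stood at 632 and 805 CPM and Mycn at 397 and 359.8. Per kilobase of exon, Mycn stood at 146 ± 10.1 CPM (SD, n = 2) in wild type DMSO, followed by Mga at 51.6 ± 8.75 and Max at 32.8 ± 0.021. Mycl at 10.3 ± 0.564 and Myc at 9.58 ± 0.794 came next, and their libraries overlapped. Mxd3, Mxi1, Mnt, Mxd4 and Mxd1 followed at means of 6.71, 5.62, 5.11, 3.70 and 1.64 CPM per kilobase, and no further neighbours in that order overlapped. Averaged over the 8 libraries, Mycn lay at percentile 95.5 of the genes tested, Mga at 88.1 and Max at 82.6. The rest lay between 30.4, for Mxd1, and 61.7, for Mycl. Mycn, Mga, Max and Mycl held the first 4 places in all 4 groups. Under TSA in TKO cells Mycn at 54.7 ± 15.7, Mga at 42.5 ± 3.59 and Max at 40.3 ± 1.42 CPM per kilobase were not clearly apart, since Mycn overlapped with Mga and Mga with Max. Mycl stood there at 19.7 ± 3.24, and Mxd4 was the fifth gene at 13.6 ± 3.23.

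**Figure D1:**
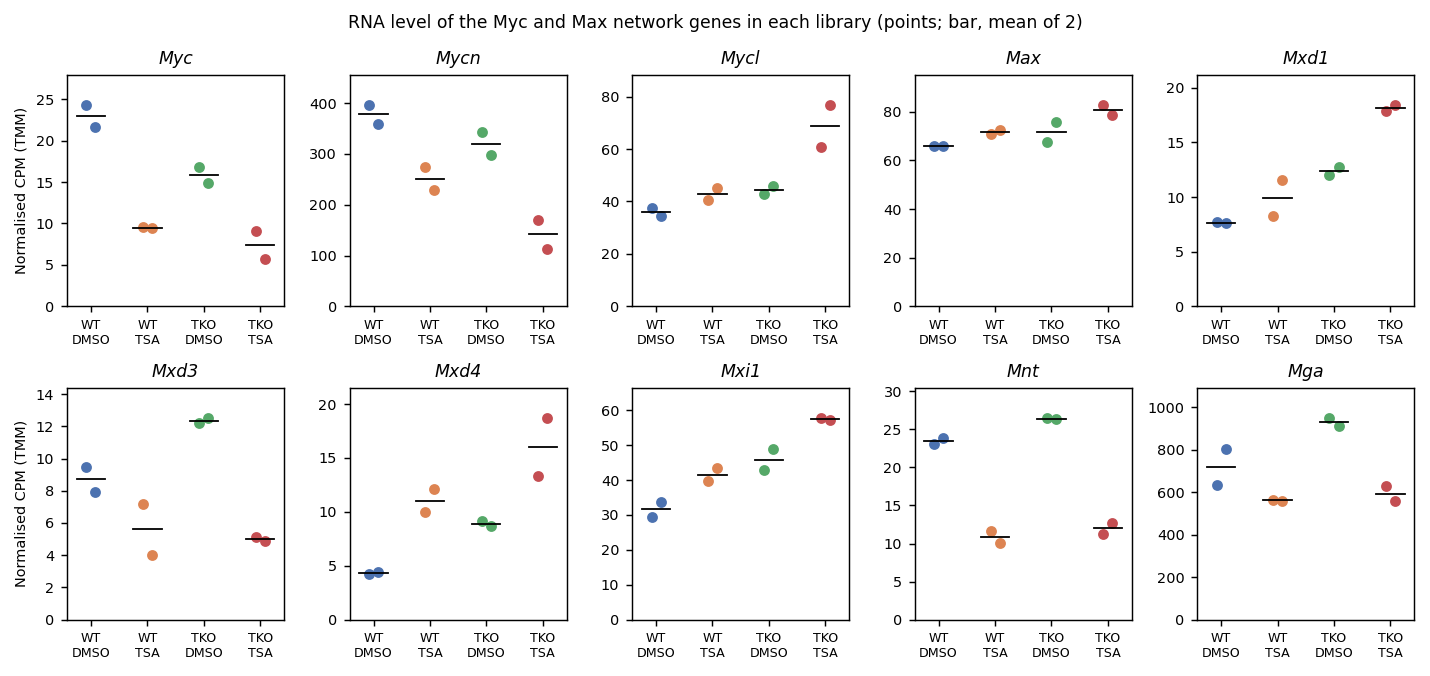
Normalised CPM (vertical axis, TMM scaled, from 0) of each network gene in each of the 8 libraries, in 4 groups of 2 along the horizontal axis; points are libraries and the bar is the mean of 2. Myc, Mycn, Mnt and Mga were called lower in both TSA groups than in the DMSO group of the same genotype, and Mxd4 and Mxi1 were called higher. Mxd3 also lay lower and Mycl and Mxd1 higher in both, but these changes were called in TKO only. Max stayed between 65.8 and 82.8.

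Among the activating partners, Mycn and Myc fell with TSA in both genotypes, while Mycl rose with TSA in TKO cells. Mycn, encoding N-MYC, lies on chromosome 12 (12936093 to 12941836, minus strand, 3 exons, mm10). Its level was 397 and 359.8 normalised CPM in wild type and 343 and 298 in TKO under DMSO, and 274 and 228 in wild type and 171 and 113 in TKO under TSA. Both TSA libraries were below both DMSO libraries in each genotype, and the TKO TSA libraries were the lowest. TSA changed Mycn by -0.59 ± 0.17 on the log2 scale in wild type (± SE, edgeR adjusted p = 0.0116) and by -1.17 ± 0.17 in TKO (edgeR adjusted p = 0.000158). Under TSA, TKO cells had 1.77-fold less Mycn than wild type (log2 change -0.82 ± 0.17, edgeR adjusted p = 0.00706). Under DMSO the change of -0.24 ± 0.17 was not called (edgeR adjusted p = 0.343). The call in wild type was lost without wild type DMSO replicate 1 (-0.52, edgeR adjusted p = 0.0570), without wild type TSA replicate 2 (-0.47, edgeR adjusted p = 0.0848) and with total count scaling (-0.39). The call between genotypes under TSA was lost without wild type TSA replicate 1 (-0.68, edgeR adjusted p = 0.0584). Mycs, an intronless gene similar to Mycn, had 0 to 3 counts in every library.

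Myc, encoding c-MYC, lies on chromosome 15 (61985341 to 61990361, plus strand, 3 exons). It stood at 24.3 and 21.6 CPM in wild type and 16.8 and 14.9 in TKO under DMSO, and 9.52 and 9.51 in wild type and 9.13 and 5.77 in TKO under TSA. The TSA libraries were the 4 lowest, and no groups overlapped. TSA lowered it 2.41-fold in wild type (log2 change -1.27 ± 0.20, edgeR adjusted p = 0.000406) and 2.14-fold in TKO (-1.09 ± 0.21, edgeR adjusted p = 0.000931). The genotype change under DMSO was -0.53 ± 0.19 and missed the threshold (edgeR adjusted p = 0.0727). It was called in a fit of these 2 groups alone and without either TKO TSA library (edgeR adjusted p = 0.0352 without replicate 1 and 0.0332 without replicate 2). Under TSA it was -0.36 ± 0.21 (edgeR adjusted p = 0.267).

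Mycl, encoding L-MYC, lies on chromosome 4 (122996099 to 123002480, plus strand, 2 exons). Its levels ran the other way, at 37.4 and 34.6 CPM in wild type and 43.0 and 45.9 in TKO under DMSO, and 40.4 and 45.0 in wild type and 60.9 and 76.9 in TKO under TSA. The TKO TSA libraries were the highest, and wild type TSA overlapped with TKO DMSO. TSA raised Mycl by 0.63 ± 0.13 in TKO (edgeR adjusted p = 0.00147), and the 0.25 ± 0.13 in wild type was not called (edgeR adjusted p = 0.132). The latter was called higher with upper quartile and total count scaling. TKO exceeded wild type by 0.69 ± 0.13 under TSA (edgeR adjusted p = 0.00428), a call that was lost without wild type TSA replicate 1 (0.61, edgeR adjusted p = 0.0506). Under DMSO the value was 0.30 ± 0.13 (edgeR adjusted p = 0.128).

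The makeup of the activating partners moved accordingly. On the per-kilobase scale, Mycn made up 88.0% of the summed level of the 3 genes in both wild type DMSO libraries, and 75.6% and 64.1% in the TKO TSA libraries. Mycl made up 6.16% and 6.28% in wild type and 8.12% and 9.80% in TKO under DMSO, and 9.54% and 12.3% in wild type and 20.0% and 32.3% in TKO under TSA. The Mycl share was lowest in wild type DMSO and highest in TKO TSA, with no overlap of these 2 groups with any other. Myc held 3.28% to 5.84% in all 8 libraries.

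Max was the steadiest of the 10 genes over these 8 libraries. It lies on chromosome 12 (76937269 to 76962248, minus strand, 5 exons). Its level was 65.8 and 65.8 CPM in wild type and 67.5 and 75.9 in TKO under DMSO, and 70.8 and 72.6 in wild type and 82.8 and 78.8 in TKO under TSA. The wild type DMSO libraries were the lowest and the TKO TSA libraries the highest. The 4 log2 changes, of 0.12 ± 0.097 and 0.17 ± 0.096 with TSA in wild type and TKO, and of 0.12 ± 0.097 and 0.17 ± 0.096 for TKO under DMSO and TSA, were not called (edgeR adjusted p = 0.300, 0.143, 0.411 and 0.237). Both TSA changes were called higher with upper quartile or total count scaling, which also moved the median of all genes upwards. At TMM scaling, Max was the only member not called in any comparison with edgeR.

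The repressing partners split under TSA. Mxd4, Mxi1 and, in TKO, Mxd1 rose, while Mnt and Mga fell in both genotypes and Mxd3 fell in TKO. Mnt, which is expressed in dividing and resting cells alike and counters MYC, lies on chromosome 11 (74830924 to 74845725, plus strand, 6 exons). It stood at 23.0 and 23.8 CPM in wild type and 26.5 and 26.3 in TKO under DMSO, and 11.7 and 10.1 in wild type and 11.3 and 12.7 in TKO under TSA. The 4 TSA libraries lay well below the 4 DMSO libraries, and the genotypes overlapped under TSA. TSA lowered Mnt 2.15-fold in wild type (log2 change -1.10 ± 0.14, edgeR adjusted p = 0.000130) and 2.19-fold in TKO (-1.13 ± 0.14, edgeR adjusted p = 6.19e-05). Neither genotype change was called, at 0.17 ± 0.14 under DMSO and 0.14 ± 0.15 under TSA (edgeR adjusted p = 0.415 and 0.547).

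Mga encodes the largest protein of the network, with a T-box as a second DNA-binding domain, and lies on chromosome 2 (119897228 to 119969581, plus strand, 24 exons). It stood at 632 and 805 CPM in wild type and 949 and 913 in TKO under DMSO, and 564 and 559 in wild type and 627 and 557 in TKO under TSA. The TKO DMSO libraries were the highest, the 2 wild type DMSO libraries lay far apart, and the genotypes overlapped under TSA. TSA changed Mga by -0.36 ± 0.11 in wild type (edgeR adjusted p = 0.0221) and by -0.65 ± 0.11 in TKO (edgeR adjusted p = 0.000596). TKO exceeded wild type by 0.37 ± 0.11 under DMSO (edgeR adjusted p = 0.0392), and by 0.08 ± 0.11 under TSA, which was not called (edgeR adjusted p = 0.684). The wild type TSA call was lost without wild type DMSO replicate 2 (-0.18, edgeR adjusted p = 0.176), without wild type TSA replicate 1 (-0.37, edgeR adjusted p = 0.0691) or 2 (-0.35, edgeR adjusted p = 0.0874), and with upper quartile and total count scaling. The genotype call under DMSO was lost without wild type DMSO replicate 1 (0.19, edgeR adjusted p = 0.270), without TKO DMSO replicate 1 (0.35, edgeR adjusted p = 0.173) or 2 (0.40, edgeR adjusted p = 0.128), and without wild type TSA replicate 1 (0.37, edgeR adjusted p = 0.0510).

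Mxd3, a member of the MXD family expressed in dividing cells, lies on chromosome 13 (55325168 to 55329730, minus strand, 6 exons). It stood at 9.49 and 7.94 CPM in wild type and 12.2 and 12.5 in TKO under DMSO, and 7.20 and 4.01 in wild type and 5.14 and 4.90 in TKO under TSA. The TKO DMSO libraries were the highest, and the TKO TSA libraries lay within the range of wild type TSA. TSA lowered it 2.46-fold in TKO (log2 change -1.30 ± 0.25, edgeR adjusted p = 0.00109). The wild type change of -0.63 ± 0.25 missed the threshold (edgeR adjusted p = 0.0546) and was called without wild type TSA replicate 1 (-1.13, edgeR adjusted p = 0.00594). Without wild type TSA replicate 2 it was -0.28 (edgeR adjusted p = 0.389). It was also called with no filter on low counts (-0.64, edgeR adjusted p = 0.0361). The genotype changes, 0.50 ± 0.24 under DMSO and -0.17 ± 0.26 under TSA, were not called (edgeR adjusted p = 0.172 and 0.698). Its exons share 105 bases, 8.08% of their length, with Prelid1 on the opposite strand. The sources used here do not say whether counting used the strand, so the Mxd3 values are uncertain to that extent. Prelid1 itself fell with TSA, from 103 and 78.4 to 51.5 and 40.5 CPM in wild type and from 83.4 and 81.5 to 44.6 and 44.2 in TKO, and its part in the Mxd3 result was not tested.

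Mxd4, a MXD family member associated with cells that leave the cycle, lies on chromosome 5 (34176580 to 34187710, minus strand, 6 exons). It stood at 4.28 and 4.46 CPM in wild type and 9.16 and 8.65 in TKO under DMSO, and 9.95 and 12.2 in wild type and 13.3 and 18.7 in TKO under TSA. Wild type DMSO was the lowest group and TKO TSA the highest, with no overlap between any groups. TSA raised Mxd4 2.53-fold in wild type (log2 change 1.34 ± 0.22, edgeR adjusted p = 0.000563) and 1.80-fold in TKO (0.85 ± 0.20, edgeR adjusted p = 0.00377). TKO exceeded wild type 2.04-fold under DMSO (1.03 ± 0.22, edgeR adjusted p = 0.00842), and the 0.54 ± 0.19 under TSA was not called (edgeR adjusted p = 0.0794). The call in TKO was lost without TKO TSA replicate 2 (0.58, edgeR adjusted p = 0.0531). The genotype call was lost without wild type DMSO replicate 1 (0.98, edgeR adjusted p = 0.0584). The uncalled change under TSA was called without TKO TSA replicate 1 (0.76, edgeR adjusted p = 0.0368).

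Mxi1, also called Mxd2 in the MXD family, lies on chromosome 19 (53310506 to 53375810, plus strand, 8 exons). It stood at 29.4 and 33.8 CPM in wild type and 42.7 and 49.0 in TKO under DMSO, and 39.7 and 43.4 in wild type and 57.8 and 57.1 in TKO under TSA. It is the only member that was called higher in all 4 comparisons, and only wild type TSA and TKO DMSO overlapped. The log2 changes were 0.40 ± 0.12 and 0.32 ± 0.12 with TSA in wild type and TKO (edgeR adjusted p = 0.0163 and 0.0315). For TKO they were 0.54 ± 0.12 under DMSO and 0.47 ± 0.12 under TSA (edgeR adjusted p = 0.00903 and 0.0179). Each of the 4 calls was lost in some of the fits with 1 library left out. The wild type TSA call was lost without wild type DMSO replicate 1 (0.30, edgeR adjusted p = 0.0968) or wild type TSA replicate 2 (0.33, edgeR adjusted p = 0.112). The TKO TSA call was lost without TKO DMSO replicate 1 (0.22, edgeR adjusted p = 0.236) or TKO TSA replicate 1 or 2 (0.31 and 0.33, edgeR adjusted p = 0.101 and 0.0928), and with no filter on low counts. The genotype call under DMSO was lost without wild type DMSO replicate 1 (0.42, edgeR adjusted p = 0.0743) or TKO DMSO replicate 2 (0.44, edgeR adjusted p = 0.0955). Under TSA it was lost without wild type TSA replicate 1 (0.40, edgeR adjusted p = 0.156) or either TKO TSA library (0.46 and 0.48, edgeR adjusted p = 0.0674 and 0.0729).

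Mxd1, the first described MXD family member and a factor of differentiating cells, lies on chromosome 6 (86647045 to 86669159, minus strand, 6 exons). It stood at 7.70 and 7.62 CPM in wild type and 12.0 and 12.7 in TKO under DMSO, and 8.30 and 11.5 in wild type and 17.9 and 18.5 in TKO under TSA. Every TKO library was above every wild type library. TKO exceeded wild type by 0.69 ± 0.19 under DMSO and 0.88 ± 0.18 under TSA (edgeR adjusted p = 0.0238 and 0.00669). TSA raised it by 0.55 ± 0.17 in TKO (edgeR adjusted p = 0.0178), and the 0.37 ± 0.19 in wild type was not called (edgeR adjusted p = 0.120). The latter was called with upper quartile or total count scaling, and without wild type TSA replicate 1 (0.59, edgeR adjusted p = 0.0401). The TSA call in TKO was lost without any 1 of the 4 TKO libraries, at 0.51 to 0.59 (edgeR adjusted p = 0.0974 without TKO DMSO replicate 1, the highest). The genotype call under DMSO was lost without any 1 of the 4 DMSO libraries, at 0.65 to 0.73 (edgeR adjusted p = 0.121 without TKO DMSO replicate 2, the highest), and that under TSA without wild type TSA replicate 1 (0.65, edgeR adjusted p = 0.0834).

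Counted by comparison, TSA in wild type cells left 2 of the 10 genes called higher and 4 lower, where 52.8% of all tested genes were called (27.0% higher and 25.9% lower). In TKO cells TSA left 4 higher and 5 lower, where 58.7% of all genes were called (30.8% higher and 27.9% lower). The TSA response is thus broad, and the members' share in wild type is near that background. TKO against wild type under DMSO gave 4 higher (Mxd1, Mxd4, Mxi1 and Mga, all repressing partners) and 0 lower, where 20.4% of all genes were called (9.62% higher and 10.7% lower). For the lower direction, 0 members were called by edgeR and by DESeq2, and 1 was below an unadjusted p of 0.05, Myc at 0.0176. Under TSA the same comparison gave 3 higher (Mycl, Mxd1 and Mxi1) and 1 lower (Mycn), where 18.4% of all genes were called (10.0% higher and 8.38% lower). Without wild type DMSO replicate 1 the count under DMSO was 0, and without TKO DMSO replicate 1 or 2 it was 2 or 1. Without wild type TSA replicate 1 the genotype count under TSA was 0, and without wild type TSA replicate 2 the TSA count in wild type was 3. In such fits the lone library of a group is assumed to vary like the other groups. Each group enters 2 of these 4 comparisons, so they are not independent of each other.

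**Figure D2:**
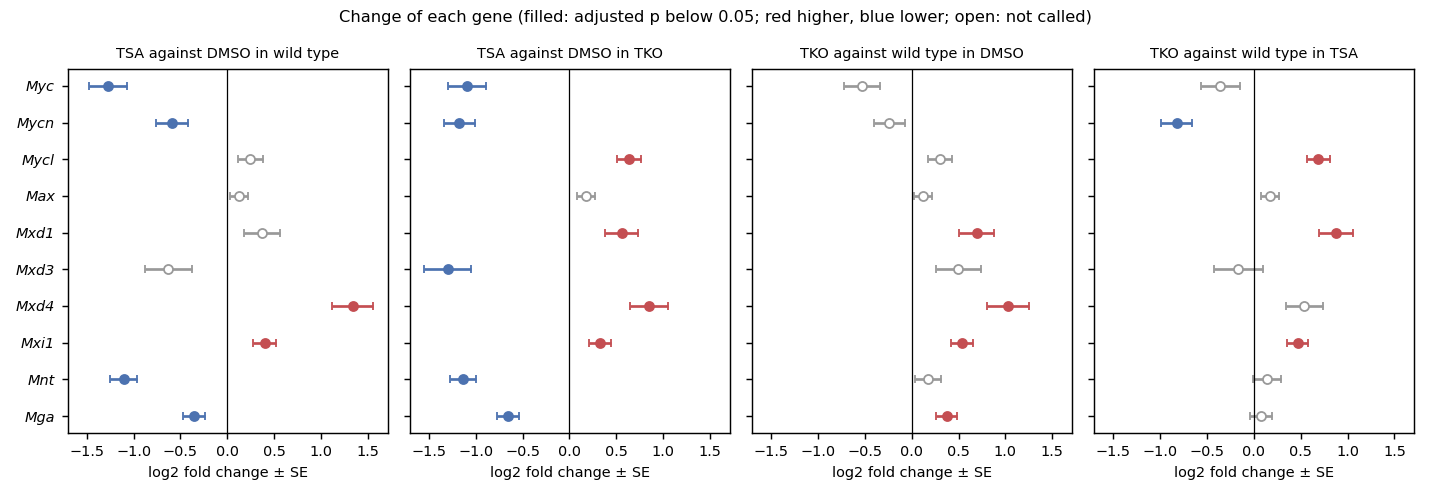
Log2 fold change (horizontal axis, ± SE) of the 10 genes (vertical axis) in 4 comparisons, from edgeR on 2 libraries a group; filled points were called at an adjusted p below 0.05, in red for higher and blue for lower, and open points were not called. Mnt and Myc lie between -1.27 and -1.09 in both TSA comparisons with no called genotype change, Mxi1 is red in all 4 panels, and Max is open in all 4.

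With all 8 libraries and the model of 4 group means, 0 members were called for a TSA response that differed between the genotypes. For the difference of the 2 TSA effects, TKO minus wild type, 0 of the 10 genes were called by edgeR and 0 by DESeq2, where 1.35% of all genes were called (0.879% higher and 0.468% lower). At an unadjusted p below 0.05 there was 1, Mycn, with a difference of -0.58 ± 0.23 on the log2 scale (unadjusted p = 0.0299, edgeR adjusted p = 0.280). A fit of all 8 libraries with a replicate block added called the Mycn difference. It was called without TKO TSA replicate 1, at -0.91 (edgeR adjusted p = 0.0419), and was -0.32 without TKO TSA replicate 2 (edgeR adjusted p = 0.587). The other differences lay between -0.67 ± 0.36 for Mxd3 and 0.39 ± 0.18 for Mycl (edgeR adjusted p = 0.429 and 0.366).

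Set together on the per-kilobase scale, activating partners made up less of the summed partner RNA in each changed group than in wild type DMSO. Max itself is not part of this sum. Myc, Mycn and Mycl summed to 174 and 157 CPM per kilobase in wild type and 151 and 134 in TKO under DMSO, and 121 and 105 in wild type and 87.0 and 68.0 in TKO under TSA. The 6 repressing partners summed to 68.2 and 80.5 CPM per kilobase in wild type and 101 and 99.7 in TKO under DMSO, and to 65.8 and 65.9 and 76.9 and 76.5 under TSA. The activating sum was lowest in TKO TSA, and the repressing sum was highest in TKO DMSO. The activating share of the partner sum was 71.8% and 66.2% in wild type and 59.9% and 57.3% in TKO under DMSO. Under TSA it was 64.8% and 61.4% in wild type and 53.1% and 47.1% in TKO. As a ratio of activating to repressing level, wild type DMSO was at 2.55 and 1.96 and TKO TSA at 1.13 and 0.889. The 4 groups did not overlap in this share. With 2 libraries a group an exact permutation test cannot go below 0.333, and the share was chosen with the single genes known, so it is given as a description with no test. Mga alone made up 52.2% to 71.8% of the repressing level. Leaving Mga out gave mean shares of 87.9% in wild type and 80.9% in TKO under DMSO, and of 81.5% and 69.1% under TSA, with wild type TSA and TKO DMSO overlapping. Without scaling by exon length the means were 35.7% and 26.8% under DMSO and 32.1% and 23.7% under TSA, and the wild type groups overlapped at 32.0% to 39.4% and 30.6% to 33.6%.

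**Figure D3:**
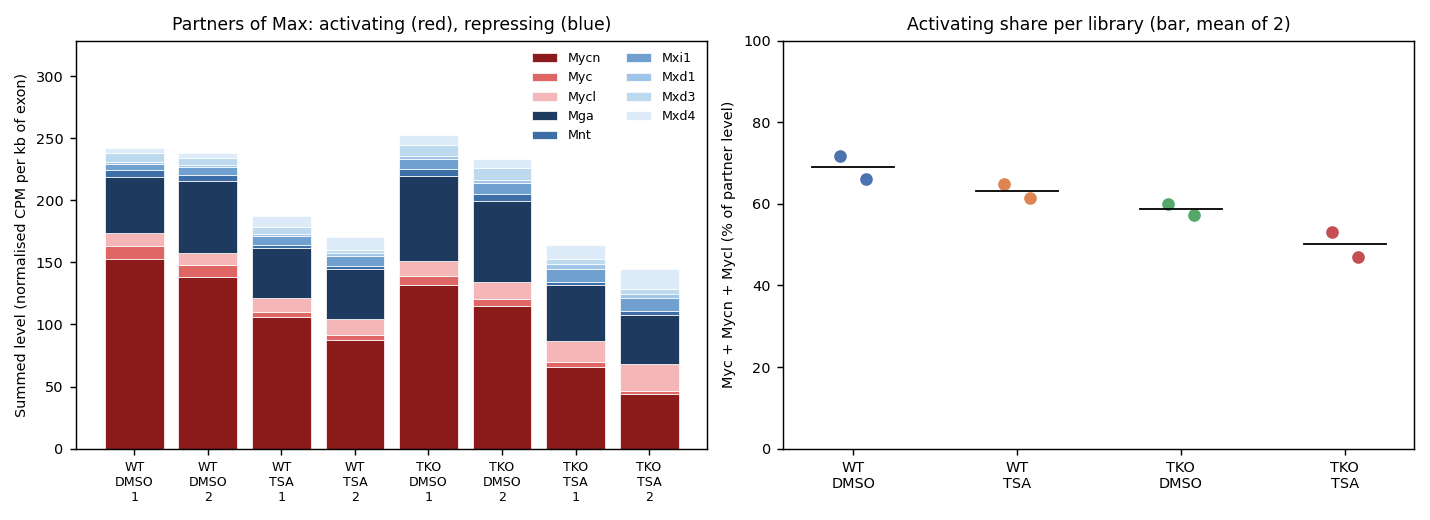
Left, summed level of the partners of Max (normalised CPM per kilobase of exon, vertical axis from 0) stacked by gene in each of the 8 libraries, activating in red and repressing in blue; right, the activating share in percent per library, with a bar at the mean of 2. The share falls from 66.2% to 71.8% in wild type DMSO to 47.1% to 53.1% in TKO TSA, and Mycn is the largest part of every stack.

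Most of the listed genes known as targets of MYC in growth and ribosome production were called lower with TSA in both genotypes. Of 30 listed, 25 were lower and 0 higher in wild type (0 higher also by DESeq2 and at an unadjusted p below 0.05), with a median log2 change of -0.63 where the median of all tested genes was 0.01. In TKO cells 21 were lower and 1 higher, with a median of -0.61 against 0.04. Of all tested genes, 25.9% were called lower and 27.0% higher in wild type, and 27.9% and 30.8% in TKO. This list and the other gene lists were chosen with earlier results of these data known. Their counts are therefore not independent evidence. Ldha, the lactate dehydrogenase subunit of glycolysis, fell by 1.06 ± 0.10 on the log2 scale in wild type and by 1.13 ± 0.10 in TKO (edgeR adjusted p = 3.25e-05 and 1.01e-05). Its level went from 771 and 874 to 404 and 383 CPM in wild type and from 798 and 859 to 408 and 350.1 in TKO. Nop56, a core protein of box C/D small nucleolar ribonucleoproteins, changed by -0.78 ± 0.086 in wild type (edgeR adjusted p = 5.43e-05), and Cdk4, a kinase that drives entry into S phase, by -0.96 ± 0.094 in TKO (edgeR adjusted p = 1.42e-05). Odc1, the first enzyme of polyamine synthesis and a classic MYC target, was the gene that rose, by 0.30 ± 0.11 in TKO (edgeR adjusted p = 0.0325). With total count scaling, which moved the median of all genes up, 20 of the 30 were lower in wild type and 21 in TKO.

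The counts for genotype were smaller. In TKO against wild type, 4 were lower and 1 higher under DMSO and again under TSA, with medians of -0.10 and -0.04 against -0.01 and 0.00 for all genes. The called shares of all genes there were 20.4% and 18.4%. Cad, which starts pyrimidine synthesis, changed by -0.48 ± 0.099 and Bop1, a ribosome assembly factor, by -0.36 ± 0.099 under DMSO, and Eif4a1, a translation initiation helicase, by 0.32 ± 0.094 (edgeR adjusted p = 0.00647, 0.0256 and 0.0330). Under TSA, Ccnd2, a G1 cyclin, changed by -1.89 ± 0.21 (edgeR adjusted p = 0.000255), Cdk4 by -0.35 ± 0.094 (edgeR adjusted p = 0.0242) and Tfrc, the transferrin receptor, by 0.40 ± 0.093 (edgeR adjusted p = 0.0139). Ccnd2 stood at 21.0 and 14.7 CPM in wild type and 12.4 and 10.6 in TKO under DMSO, and 17.1 and 15.0 in wild type and 4.26 and 4.39 in TKO under TSA. The count of lower genes under DMSO was 0 without TKO DMSO replicate 1 and 1 without TKO DMSO replicate 2 or wild type DMSO replicate 1. Under TSA it was 1 without wild type TSA replicate 1 or TKO TSA replicate 2.

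Most of the listed coactivators that MYC recruits were called lower with TSA. Of 11 listed, 7 were lower and 0 higher by edgeR in wild type (median -0.67, with 1 higher by DESeq2 and 1 at an unadjusted p below 0.05) and 8 lower and 1 higher in TKO (median -0.58). Over all tested genes 25.9% and 27.9% were lower and 27.0% and 30.8% higher, with medians of 0.01 and 0.04. As for the growth targets, this list was chosen with earlier results known. Smarcb1, a core subunit of the SWI/SNF remodeller that binds MYC, stood at 117 and 114 CPM in wild type and 113 and 105 in TKO under DMSO, and 61.6 and 54.8 in wild type and 49.5 and 41.1 in TKO under TSA. It changed by -0.99 ± 0.11 in wild type and -1.27 ± 0.11 in TKO (edgeR adjusted p = 6.32e-05 and 8.47e-06). Kat2a, the acetyltransferase GCN5, changed by -0.92 ± 0.095 in wild type (edgeR adjusted p = 4.05e-05), and Actl6a, an actin-related subunit of several remodellers, by -0.94 ± 0.10 in TKO (edgeR adjusted p = 2.48e-05). Ep400, a remodeller of the TIP60 complex, rose by 0.75 ± 0.15 in TKO (edgeR adjusted p = 0.00141). Between genotypes, 0 of the 11 were called under DMSO by edgeR (20.4% of all genes) and 0 by DESeq2, with 1 higher and 3 lower at an unadjusted p below 0.05. Under TSA, where 18.4% of all genes were called, 1 was higher (Ep400, 0.58 ± 0.15, edgeR adjusted p = 0.0200) and 2 were lower (Ruvbl2 at -0.32 ± 0.097 and Smarcb1 at -0.36 ± 0.11, edgeR adjusted p = 0.0418 and 0.0474).

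Genes that set the stability of MYC proteins were examined as a list of 7. With TSA, 5 were lower and 1 higher in wild type, and 3 lower and 1 higher in TKO (medians -0.32 and -0.21, against 0.01 and 0.04 for all genes). Of all genes, 25.9% and 27.9% were lower and 27.0% and 30.8% higher. Over the alternatives 3 to 5 of the 7 were lower in wild type and 1 to 3 in TKO. The count of 3 came without wild type DMSO replicate 1 or wild type TSA replicate 2 and with 2 other scalings, and the count of 1 without TKO DMSO replicate 2 and with the same scalings. Usp28, a deubiquitinase that opposes the breakdown of MYC, went from 168 and 219 to 80.1 and 81.0 CPM in wild type and from 204 and 225 to 85.7 and 77.8 in TKO. These are log2 changes of -1.27 ± 0.12 and -1.39 ± 0.12 (edgeR adjusted p = 3.37e-05 and 8.47e-06). Fbxw7, the ubiquitin ligase subunit that marks MYC and N-MYC for breakdown, rose by 0.36 ± 0.11 and 0.36 ± 0.10 (edgeR adjusted p = 0.0134 and 0.0121). Aurka, a kinase that shields N-MYC from FBXW7, changed by -0.50 ± 0.089 and -0.29 ± 0.089 (edgeR adjusted p = 0.000967 and 0.0151). Between genotypes, where 20.4% and 18.4% of all genes were called, 1 was lower under DMSO (Skp2, another ligase subunit, -0.48 ± 0.099, edgeR adjusted p = 0.00620) and 1 higher under TSA (Aurka, 0.38 ± 0.089, edgeR adjusted p = 0.0138).

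Subunits of the SIN3 corepressor, through which MXD proteins act, were listed as 15 genes. Of these, 3 rose and 3 fell with TSA in wild type, and 5 rose and 4 fell in TKO, with medians of -0.14 and 0.08. All tested genes had 27.0% higher and 25.9% lower in wild type and 30.8% and 27.9% in TKO, so these counts were near the background shares. In wild type 5 fell without DMSO replicate 1, and with upper quartile or total count scaling 5 rose and 2 fell. Sap18 rose by 0.73 ± 0.13 in both genotypes (edgeR adjusted p = 0.00107 and 0.000742) and Rbbp7, a histone-binding subunit, by 0.69 ± 0.11 and 0.58 ± 0.11 (edgeR adjusted p = 0.000425 and 0.000933). Sap30 changed by -0.70 ± 0.12 and -0.55 ± 0.12 (edgeR adjusted p = 0.000602 and 0.00211), and Rbbp4, the close relative of Rbbp7, by -0.48 ± 0.091 and -0.43 ± 0.091 (edgeR adjusted p = 0.00128 and 0.00197). Between genotypes, where 20.4% and 18.4% of all genes were called, 0 rose by edgeR (1 by DESeq2 and 1 at an unadjusted p below 0.05) and 2 fell under DMSO (Rbbp7 at -0.50 ± 0.11 and Suds3 at -0.28 ± 0.085, edgeR adjusted p = 0.00834 and 0.0386). Under TSA 2 rose (Ing1 and Brms1l) and 1 fell (Rbbp7, -0.61 ± 0.11, edgeR adjusted p = 0.00343). Hdac1 and Hdac2 are on this list and on the next, and Wdr5 is on the next and among the coactivators.

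Partners of MGA in its polycomb complex were listed as 12 genes. With TSA, 5 fell and 0 rose in wild type, and 4 fell and 0 rose in TKO, with medians of -0.26 and -0.21 (0 rose also by DESeq2 and at an unadjusted p below 0.05). Of all tested genes, 25.9% and 27.9% were lower and 27.0% and 30.8% higher, so the lower count in TKO was near the background share. Over the alternatives 3 to 7 of the 12 were lower in wild type, with 3 without wild type DMSO replicate 2 or wild type TSA replicate 1. In TKO 2 to 6 were lower and 0 to 2 higher, with 2 lower without TKO DMSO replicate 1 or TKO TSA replicate 2, and 2 in each direction with total count scaling. Pcgf6, the subunit that defines this complex together with MGA, changed by -0.49 ± 0.093 and -0.46 ± 0.093 (edgeR adjusted p = 0.00133 and 0.00151). It stood at 97.7 and 103 CPM in wild type and 96.1 and 89.8 in TKO under DMSO, and 73.7 and 69.6 in wild type and 69.0 and 66.0 in TKO under TSA. Rnf2, the RING1B ubiquitin ligase, changed by -0.98 ± 0.14 in TKO (edgeR adjusted p = 0.000130), and Tfdp1, the partner of E2F6, by -0.60 ± 0.11 in wild type (edgeR adjusted p = 0.00142). Between genotypes, where 10.7% and 8.38% of all genes were lower, 2 fell under DMSO (Tfdp1 at -0.90 ± 0.12 and E2f6 at -0.41 ± 0.13, edgeR adjusted p = 0.000472 and 0.0439) and 1 under TSA (Tfdp1 at -0.57 ± 0.12, edgeR adjusted p = 0.00725).

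Most listed germ cell genes that the MGA complex is known to silence were called higher in each of the 4 comparisons. Of 11 listed, 9 were higher and 0 lower with TSA in wild type (median 1.10, 0 lower also by DESeq2 and at an unadjusted p below 0.05), and 7 higher and 1 lower in TKO (median 0.90). Of all tested genes, 27.0% and 30.8% were called higher. In TKO against wild type, 6 were higher and 0 lower under DMSO (median 1.42, 0 lower also by those measures) and 6 higher and 1 lower under TSA (median 0.80), where 9.62% and 10.0% of all genes were called higher. The list was drawn up with germline results of these libraries known, and DNA methylation silences several of these genes too, so its direction is not independent evidence. Taf7l, a testis TFIID subunit, stood at 4.99 and 5.83 CPM in wild type and 16.8 and 18.8 in TKO under DMSO, and 34.4 and 37.9 in wild type and 86.8 and 70.7 in TKO under TSA. It was called higher in all 4 comparisons, at 2.74 ± 0.16 and 2.15 ± 0.14 with TSA and at 1.72 ± 0.17 and 1.12 ± 0.13 with the TKO genotype (edgeR adjusted p = 0.000339 at the highest). Dazl, an RNA-binding protein of germ cells, stood at 8.42 and 12.3 CPM in wild type and 134 and 148 in TKO under DMSO, and at 25.8 and 58.2 and at 267 and 259 under TSA. Its genotype changes were 3.77 ± 0.32 and 2.65 ± 0.28 (edgeR adjusted p = 2.85e-05 and 0.000194). Mael, a piRNA pathway gene, rose with TSA by 1.59 ± 0.14 and 1.19 ± 0.14 (edgeR adjusted p = 2.13e-05 and 4.25e-05). Ddx4, the germ cell helicase, went the other way, at 17.6 and 20.3 CPM in TKO DMSO against 8.72 and 7.22 in TKO TSA, with -1.25 ± 0.19 for TSA in TKO (edgeR adjusted p = 0.000270). For the difference of the TSA effects, TKO minus wild type, edgeR called 1 of the 11, Stk31, at -1.58 ± 0.29 (edgeR adjusted p = 0.0324). DESeq2 called 3 lower, and 5 were lower and 1 higher at an unadjusted p below 0.05. The count of genes higher with TSA in TKO was 4 without TKO DMSO replicate 1. The count higher in TKO under TSA was 3 without wild type TSA replicate 1 and 4 without TKO TSA replicate 2.

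The parallel branch around MLX, a MAX-like factor, has 3 genes on its list. With TSA, 0 were called higher and 1 lower in wild type, and 1 and 1 in TKO (medians 0.20 and -0.08). In TKO against wild type, 1 was higher and 0 lower under DMSO and again under TSA (medians 0.19 and 0.49). The called shares of all genes in these comparisons were 52.8%, 58.7%, 20.4% and 18.4%. Mlx changed by -0.52 ± 0.12 and -0.69 ± 0.12 with TSA in wild type and TKO (edgeR adjusted p = 0.00469 and 0.000654). Mlxip, the glucose sensor MONDOA, rose by 0.49 ± 0.14 with TSA in TKO (edgeR adjusted p = 0.0114) and was 0.49 ± 0.14 higher in TKO than in wild type under TSA (edgeR adjusted p = 0.0353). Mlxipl, the glucose sensor CHREBP, was 1.02 ± 0.20 higher in TKO under DMSO (edgeR adjusted p = 0.00504).

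**Figure D4:**
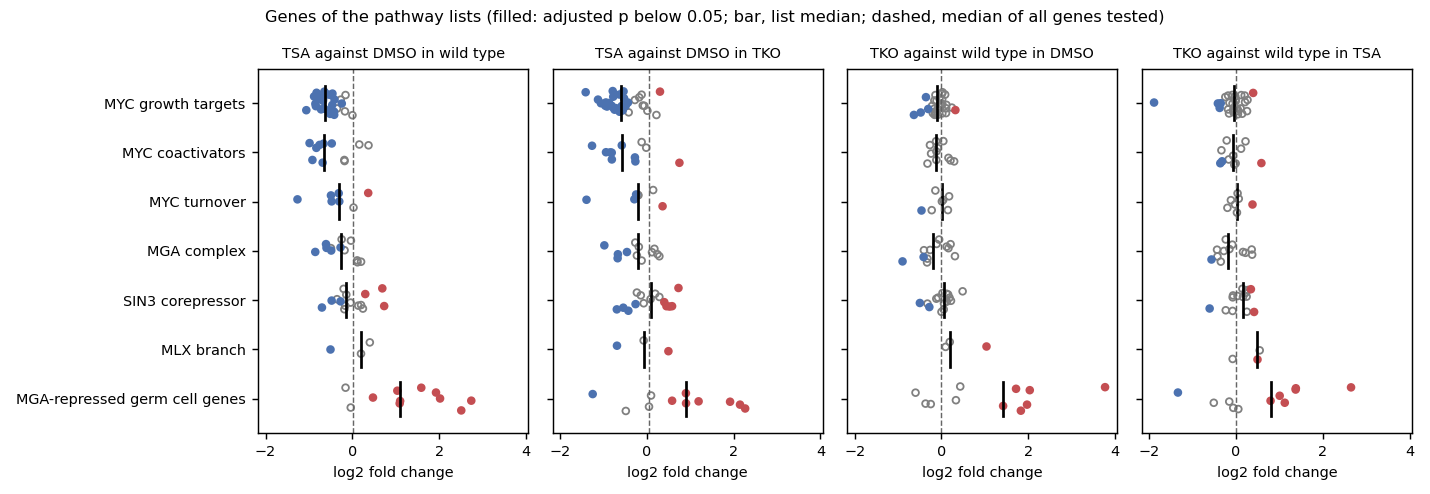
Log2 fold change (horizontal axis) of each gene of the 7 pathway lists (vertical axis, spread at random within a list) in 4 comparisons; filled points were called at an adjusted p below 0.05, in red for higher and blue for lower, the bar is the list's median and the dashed line the median of all genes tested. The medians of growth targets and coactivators lie left of the line in both TSA panels, at -0.58 to -0.67, and near it in both genotype panels, and the median of the germ cell genes lies right of it in all 4; single genes lie on both sides.

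The genes whose pattern was most like that of a member were taken as those with the smallest root mean square difference in centred log2 CPM over the 8 libraries, among 10025 genes. For Mycn these were Wsb2, Pnma2 and Rab4a, at 0.10, 0.12 and 0.12, where the median gene was at 0.57. Wsb2 averaged 81.9 and 71.2 CPM under DMSO and 56.9 and 35.6 under TSA, wild type first. For Max they were Cog3, Psmd2 and Hadha, at 0.043, 0.047 and 0.048, where the median gene was at 0.30. For Mga they were Sass6, Rif1 and Cry1, at 0.045, 0.051 and 0.052, where the median gene was at 0.35. Rif1 averaged 1571 and 1988 CPM under DMSO and 1196 and 1243 under TSA, wild type first, with its highest level in TKO DMSO as for Mga.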

How the data were processed

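The authors deposited raw read counts per gene for 8 libraries of ribosomal RNA-depleted total RNA, made with a strand-directional kit per the labels' protocols. TopHat2 2.0.13, featureCounts 1.4.5-p1, edgeR 3.22.3 and build mm10 are named in the submitters' processing notes. The counting mode is not given in the sources used here. The other unit read is the deposited exon length of each gene in bases, as the authors recorded it. Groups and replicate numbers came from the labels. The series' design text calls the replicates biological, but nothing names separate cultures, so p-values measure the spread between these libraries. The 10 members and the gene lists were chosen with earlier results of these data known.

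The test was that of edgeR 4.0.16 (R 4.3.3) on the counts: filterByExpr, TMM factors, 1 quasi-likelihood model with 4 group means (4 residual degrees of freedom, biological coefficient of variation 10.3%), two-sided, with Benjamini-Hochberg adjustment over 15822 genes. Called means an adjusted p below 0.05. SEs were derived from the F statistic and are approximate. Replicates differed by more than sampling noise (chi-square per degree of freedom 5.28 to 12.2), so no library was counted as a duplicate. The edgeR script was tested on simulated counts in which 200 genes changed, in the wild type TSA group only. Far more genes were called with TSA in the data, so the simulation did not examine scaling under such a broad response. The rule for naming genes takes all members, the 3 Dnmt genes, the 2 called list genes of lowest adjusted p per direction and comparison, and the genes nearest in pattern. Prelid1, Mycs and the marker genes named were added for their bearing on counts. Genes of a list given with levels were named by this rule. Alternatives were other scalings, no filter, DESeq2 1.42.0, a replicate block, only the groups compared, a threshold of 0.01 and leaving out each library.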

Additional observations from a re-analysis of the deposited data

How the results depend on the processing

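For the 4 comparisons between groups, 576 of the members' values under the alternatives kept their direction and side of the threshold, 44 lost the call, 18 gained one and 2 changed sign. The 576 include values never called and fits without a library of a group not compared. The calls kept under every alternative were Myc, Mxd4 and Mnt for TSA in wild type, and Myc, Mycn, Mycl, Mxd3, Mnt and Mga for TSA in TKO. No genotype call was kept under every alternative. A threshold of 0.01 left 3 called members for TSA in wild type and 2 for genotype under DMSO. Leaving out 1 library at a time gave 3 to 7 called members for TSA in wild type, 6 to 9 for TSA in TKO, 0 to 5 and 0 to 4 for genotype under DMSO and TSA, and 0 to 1 for the difference of TSA effects. Uncalled values that changed sign with a library left out ran from -0.52 to 0.32 for Mxd3 and from -0.011 to 0.16 for Mga (genotype under TSA). For the difference of TSA effects they ran from -0.19 to 0.48 for Myc, -0.033 to 0.14 for Max, -0.037 to 0.44 for Mxd1, -0.17 to 0.036 for Mxi1 and -0.13 to 0.075 for Mnt. Max was at -0.025 with upper quartile and -0.0078 with total count scaling there. The cause was not tested. The numbers that libraries share were checked across genes: same-numbered libraries' deviations correlated at 0.0586 to 0.366, with 2 pairs and no label saying what a number marks. The replicate block gave 7, 9, 5, 5 and 1 called members for the 5 comparisons against 6, 9, 4, 4 and 0. The 1 for the difference of TSA effects was Mycn, at -0.60 (edgeR adjusted p = 0.0438). DESeq2 changed no member's call.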
